A study of Mus musculus with 6 samples.

Results

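Plasmacytoid dendritic cells (pDC) were profiled in 6 droplet single-cell libraries of mouse small intestinal mucosa. A barcode was taken as a pDC if it held at least 1000 UMIs (counted RNA molecules), at most 25% mitochondrial UMIs, no UMI of the T cell gene Cd3e or the B cell gene Ms4a1, at least 1 UMI of Siglech, and UMIs of at least 2 of Cox6a2, Klk1, Ly6d, Pacsin1, Ccr9, Tcf4, Bst2 and Irf8. These limits were met by 135 barcodes, of 35259 that passed the UMI and mitochondrial limits and 60706 in all. The measured levels of Siglech and the 8 other genes thus chose the cells, and their levels are given here as a description.

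The libraries came from 3 control littermates and 3 IE-HuR-/- mice of C57BL/6 background, matched for age and gender, and 1 library was made per replicate. By the paper's methods, animals were kept without food, but with water, before experiments. HuR is the RNA-binding protein encoded by Elavl1, and IE-HuR-/- mice carry the floxed gene (HuR fl/fl) together with villin-Cre, which is active in intestinal epithelium. Control littermates carried HuR fl/fl without Cre, although their genotype is labelled wild-type. The villin promoter is an epithelial one and is not known to be active in pDC. The mucosa was dissociated with EDTA and a trypsin-like enzyme to obtain epithelial cells, and 9163 of the 35259 barcodes held a UMI of the pan-leukocyte gene Ptprc. Elavl1 in epithelial barcodes (at least 1 Epcam UMI, no Ptprc UMI) was 30.1 ± 0.89 CPM (counts of a gene scaled to a common library total) in control libraries and 31.0 ± 0.53 in libraries labelled IE-HuR-/- (SD, n = 3 each). Whether the counted transcript end lies in the deleted part is not given, so this level does not check the labels.

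pDC are cells of the dendritic lineage with the rounded, secretory shape of a plasma cell. They sense viral and self nucleic acids in endosomes through TLR7 and TLR9 and are known for rapid release of type I interferon. Their identity depends on TCF4, a transcription factor that binds the E-box motif, and in the small intestine they are known to arrive through CCR9, the receptor of the epithelial chemokine CCL25. Siglec-H, encoded by Siglech, is a surface lectin-like receptor of mouse pDC.

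The promoters of 4 genes described below are shown: Siglech, which defines the cells, Ccr9, which differed between labels, and the MHC class II genes H2-Eb1 and H2-Aa, the latter of which encodes the partner chain of H2-Ab1. The sequences are from RefSeq on build GRCm38.p6 and run from 250 bases before to 50 bases after the start site, 5′ to 3′ on the coding strand. In the first pair, capitals mark the E-box CANNTG, which reads the same on both strands. Siglech lies at chr7:55767934-55768233 on the plus strand with 3 matches, and Ccr9 at chr9:123766961-123767260 on the plus strand with 2 matches.
Siglech: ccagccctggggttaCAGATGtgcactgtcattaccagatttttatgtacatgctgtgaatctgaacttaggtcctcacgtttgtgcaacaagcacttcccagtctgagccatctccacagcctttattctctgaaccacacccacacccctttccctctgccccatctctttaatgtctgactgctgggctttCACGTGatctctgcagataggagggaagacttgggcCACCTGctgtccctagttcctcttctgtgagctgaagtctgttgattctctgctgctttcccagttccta
Ccr9: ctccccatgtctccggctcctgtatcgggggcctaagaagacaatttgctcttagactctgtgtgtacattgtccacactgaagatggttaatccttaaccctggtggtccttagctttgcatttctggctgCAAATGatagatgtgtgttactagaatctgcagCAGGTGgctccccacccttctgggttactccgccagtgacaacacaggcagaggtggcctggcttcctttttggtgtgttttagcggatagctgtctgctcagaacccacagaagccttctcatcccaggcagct
The E-box was present in 72.1% of all 27025 promoters of this length, so its presence is the common case. Of the 39 gate and further pDC genes, 30 had a promoter in the table and 24 of these held the motif.

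In the second pair, capitals mark the CCAAT box on either strand (CCAAT or ATTGG), a letter string that is part of the conserved upstream region of MHC class II genes. H2-Eb1 lies at chr17:34305617-34305916 on the plus strand with 2 matches, and H2-Aa at chr17:34287774-34288073 on the minus strand with 1 match.
H2-Eb1: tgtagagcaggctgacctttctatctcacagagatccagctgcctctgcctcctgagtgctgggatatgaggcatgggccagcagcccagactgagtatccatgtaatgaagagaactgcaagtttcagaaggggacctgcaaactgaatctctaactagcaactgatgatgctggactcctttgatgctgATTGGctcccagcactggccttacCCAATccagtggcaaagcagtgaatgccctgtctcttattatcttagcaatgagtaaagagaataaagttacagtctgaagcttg
H2-Aa: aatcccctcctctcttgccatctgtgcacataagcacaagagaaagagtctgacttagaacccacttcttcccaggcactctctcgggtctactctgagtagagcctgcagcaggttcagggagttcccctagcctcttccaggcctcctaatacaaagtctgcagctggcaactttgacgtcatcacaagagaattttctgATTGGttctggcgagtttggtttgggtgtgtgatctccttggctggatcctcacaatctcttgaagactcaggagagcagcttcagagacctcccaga
This motif was present in 37.9% of all promoters of this length. A match is a string of letters and was not tested for binding.

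Before the results, 7 of the 135 cells stood apart from the label of pDC. Each of them held a single Siglech UMI and 2 or 3 of the other gate genes, with 13856 to 61920 UMIs. Between 7.84% and 18.9% of their UMIs came from a list of 26 epithelial genes, against a median of 8.62% in epithelial barcodes. None of the 7 held a UMI of Cox6a2, Ccr9 or Pacsin1, and 1 held a UMI of Ptprc. One was in control 2, 4 were in IE-HuR-/- 2 and 2 in IE-HuR-/- 3, and together they held 23.1% of all UMIs of the 135 cells. They are barcodes that met the rule and looked epithelial by these genes.

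Of the other 128 cells, which held at least 2 Siglech UMIs and at least 3 other gate genes, 1 held macrophage RNA and is described below. As a set the 128 cells matched the label by their other genes, given in the profile. They numbered 62 in the control and 66 in the IE-HuR-/- libraries, with a median of 7238 UMIs, 2389 genes and 18 Siglech UMIs. The epithelial list gave a median of 0.555% of their UMIs and at most 4.27%, and 118 of them held a Ptprc UMI. Of all 135 cells, 65 held all 8 other gate genes, 46 held 7 and 7 held 6. Levels are therefore given for these 128 cells, and the counts of genes called by label are given for both the 135 and the 128.

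**Figure D1:**
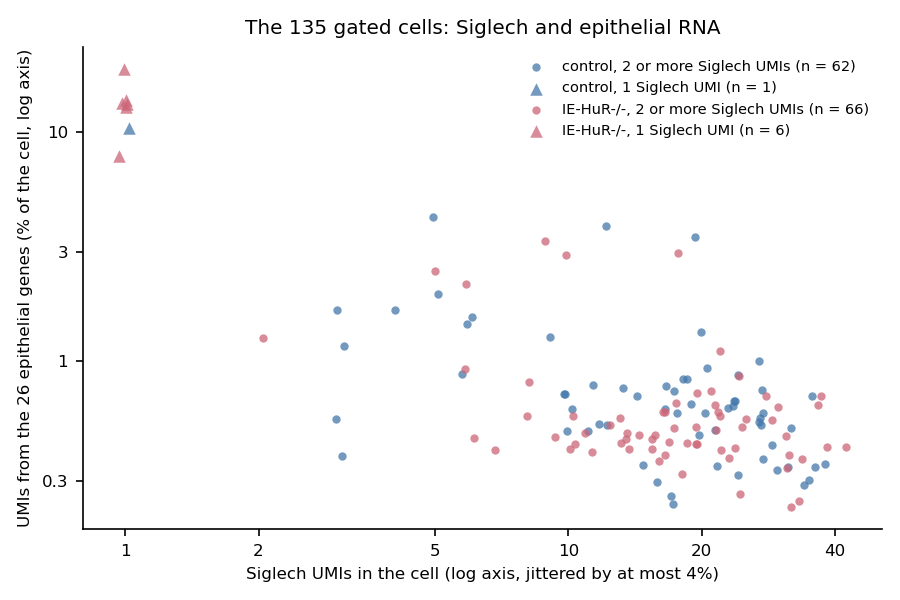
Siglech UMIs per cell (x axis, log) against the percent of UMIs from 26 epithelial genes (y axis, log) for the 135 gated cells, coloured by label. The 7 cells with 1 Siglech UMI (triangles) lie at 7.84% to 18.9% epithelial UMIs, above all 128 others (circles), which reach 4.27% at most.

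Few barcodes outside the rule held Siglech, while many held the other genes without it. The limit of 1 Siglech UMI also let in the 7 cells that looked epithelial. Among the filtered barcodes, 159 held a Siglech UMI, of which 5 with at least 2 of the other genes were left out for Cd3e or Ms4a1, 18 held 0 or 1 of the other genes and 1 failed on both. The 18 had at most 2 Siglech UMIs and a median of 4.32% epithelial UMIs. Conversely, 4405 barcodes held at least 2 of the other genes without Siglech, with a median of 9.72% epithelial UMIs. Tcf4 and Irf8 were detected in 18.1% and 41.1% of epithelial barcodes. Only 8 of the 4405 held 5 of the other genes and none held more.

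pDC were rare in every library and their share did not separate the labels. The 135 cells made up 0.273%, 0.328% and 0.412% of the filtered barcodes of the 3 control libraries, and 0.295%, 0.503% and 0.541% of the IE-HuR-/- libraries. The groups overlapped, with IE-HuR-/- 1 below 2 of the 3 controls. The mean was 0.338% ± 0.070 in control and 0.446% ± 0.132 in IE-HuR-/- libraries (SD, n = 3 each), and a two-sided exact permutation test gave p = 0.3, where the smallest p that 3 against 3 allows is 0.1. With the 128 cells the means were 0.334% and 0.410% (exact permutation p = 0.4). Among barcodes of at most 1% epithelial UMIs the sign of the difference turned, with 2.13% in control and 1.79% in IE-HuR-/- libraries (exact permutation p = 0.5). As a share of Ptprc-positive barcodes, pDC were 1.38% ± 0.386 and 1.28% ± 0.342 (SD, n = 3 each, exact permutation p = 0.8), and the sign of this difference turned without control 3 or without IE-HuR-/- 1. Counting error alone was wide, since control 1 held 18 pDC among 6587 barcodes, a 95% Clopper-Pearson interval of 0.162% to 0.432%. Intervals and detection limits here cover counting error only.

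**Figure D2:**
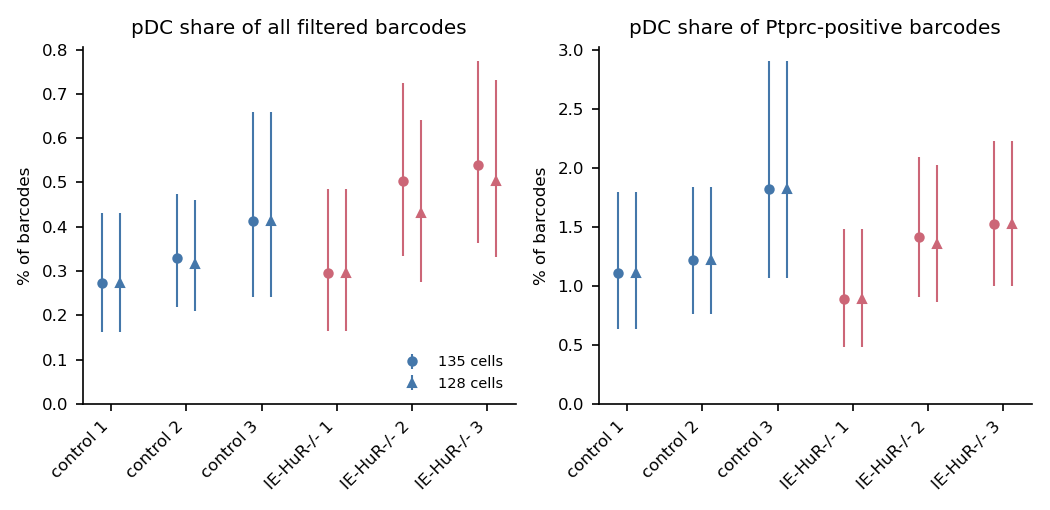
pDC as a percent of all filtered barcodes (left) and of Ptprc-positive barcodes (right) in each library, for 135 cells (circles) and 128 cells (triangles). Bars are 95% Clopper-Pearson intervals, and the intervals of control (blue) and IE-HuR-/- (red) libraries overlap in both panels, with shares of 0.273% to 0.541% on the left.

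The profile of pDC was set against the other 9044 Ptprc-positive barcodes, of which 6599 held Cd3e. Siglech, which the gate required, had the highest ratio in it. The comparison is a description, since the gate chose the cells on the same counts. It is the mean over 6 libraries of the log2 ratio of CPM, with 20 added to both. Among 5103 genes with at least 30 UMIs in the 135 cells, 610 (12%) were at least 2-fold higher in the 128 cells and 665 (13%) at least 2-fold lower. With all 135 cells these were 479 (9.39%) and 316 (6.19%). Among the 4173 genes with at least 30 UMIs in the 128 cells themselves, 608 (14.6%) were higher and 316 (7.57%) lower. Both limits drop genes that are low in pDC, so the fold counts of lists below cover all members outside the gate. They stand beside 1.97% higher and 3.26% lower of all 32285 genes, whose median log2 ratio was 0.

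Siglech itself was at 2722, 2475 and 2741 CPM in the control libraries and at 2608, 2266 and 2862 in the IE-HuR-/- libraries. The libraries of both labels overlapped. In the other Ptprc-positive barcodes it averaged 0.34 CPM, a log2 ratio of 7.01, and it was detected in 0.06% of epithelial barcodes. Ly6d, a GPI-anchored surface protein of lymphoid progenitors and pDC, was at 3689 ± 398 (SD over 6 libraries) against 13.9 CPM. Bst2, the tetherin known in mouse pDC as PDCA-1, was at 2734 ± 207 against 26.9. Klk1, a tissue kallikrein, was at 974 ± 273 against 11.2.

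**Figure D3:**
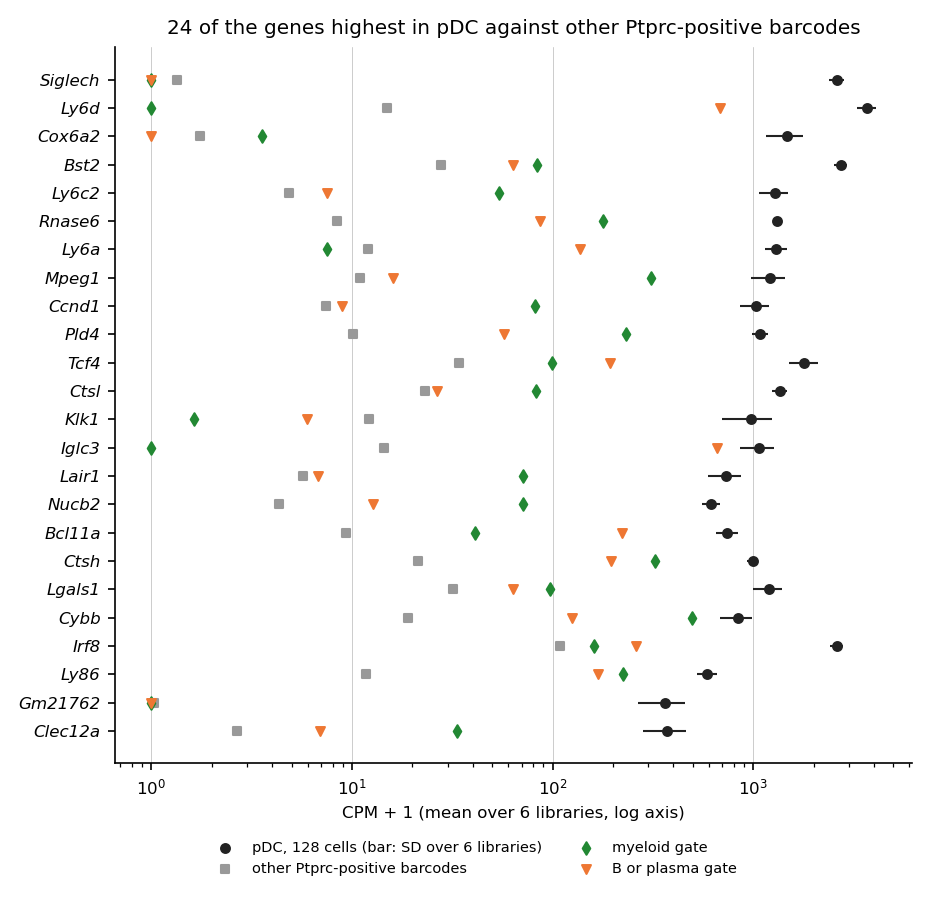
Level of 24 of the 25 genes with the highest ratio in 128 pDC (black, mean and SD over 6 libraries) beside other Ptprc-positive barcodes (grey), a myeloid gate (green, 176 barcodes) and a B or plasma cell gate (orange, 219 barcodes), as CPM + 1 on a log axis. Black points lie to the right of all other points in every row, with the nearest gap for Iglc3 in B or plasma cells and for Cybb in myeloid cells.

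Outside the gate genes, the highest ratios included the following. Ly6c2 and Ly6a, surface proteins of the Ly6 family, had log2 ratios of 5.76 and 5.44. Rnase6, an antimicrobial ribonuclease, was at 5.62, Mpeg1, a pore-forming protein of phagocytes, at 5.35 and Pld4, an endolysosomal nuclease that degrades single-stranded nucleic acids, at 5.24. Ctsl and Ctsh, lysosomal cathepsins, were at 5.03 and 4.66. Ccnd1, which encodes cyclin D1, was at 1033 ± 170 CPM against 6.43 in the other barcodes (log2 ratio 5.30). The proliferation genes Mki67 and Top2a were nevertheless each detected in 3 of 128 cells, beside 7.53% and 10.7% of T cell barcodes, whose median was 4709 UMIs against 7238 in pDC. Lair1, an inhibitory collagen receptor, reached 4.91, and Clec12a, an inhibitory lectin receptor, 4.15. Each of the 25 genes was higher in pDC in 6 of 6 libraries. They were picked by their mean ratio over these same libraries, so this is a description.

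Genes of T cells and cytotoxic cells were among the lowest of those with at least 100 CPM in the other Ptprc-positive barcodes. The erythroid genes Hbb-bs and Hba-a1 were also among the lowest (log2 ratios -4.93 and -4.23). Ccl5, a T cell chemokine, was at 26.9 CPM against 10300 in the other Ptprc-positive barcodes, Gzma at 57.2 against 12977 and Gzmb at 6.67 against 1960. Gzmb, which human pDC are known to express, was detected in 6 of 128 cells and in 76.8% of T cell barcodes. Cd3g, Cd3d, Trbc1, Trbc2, Trdc, Nkg7 and Gimap4 each had at most 4 UMIs in all 128 cells. These cells were selected on the absence of Cd3e, so the low T cell genes are a description of the gate.

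Defining genes of several other lineages were at 0 in the 128 cells. Among them, Ms4a1 of the B cell list and Cd3e of the T cell list were held at 0 by the gate. Of the lists for NK cells, B cells, mast cells, neutrophils and fibroblasts, 4 of 5, 5 of 6, 3 of 5, 3 of 4 and 3 of 4 genes had no UMI. In the lists for T cells, plasma cells, conventional dendritic cells and transitional dendritic cells these were 2 of 10, 1 of 5, 3 of 10 and 1 of 5, and in those for macrophages (10 genes), erythroid cells (4) and epithelium (26) there were none. Zbtb46 and Batf3, transcription factors of conventional dendritic cells, had no UMI either. The conventional dendritic cell list summed to 1015 CPM in pDC and 618 in the myeloid gate, with Clec10a, a galactose-type lectin, at 277. Of its 10 genes, 6 were at least 2-fold higher and none lower than in the other Ptprc-positive barcodes, among them Clec9a, a lectin receptor of cross-presenting dendritic cells, which was detected in 67 of 128 cells and in 0.0152% of T cell barcodes. The macrophage list summed to 1574 CPM, of which Ly6c2 gave 1278. By library its sum was 2983, 1339 and 1630 CPM in control and 1247, 972 and 1275 in IE-HuR-/- libraries. One cell of control 1 held 3 Siglech UMIs together with 68 of the 69 C1qa UMIs of the 128 cells. C1qa encodes a complement subunit made by macrophages, and this cell is treated separately where it bears on a result.

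Transcription factors of the pDC lineage were divided. Of 19 listed factors outside the gate, 7 were at least 2-fold higher and 3 at least 2-fold lower, with a median log2 ratio of 0.02. Irf8, a gate gene needed for dendritic cell development, was at 2612 ± 206 CPM (log2 ratio 4.37). Tcf4, also of the gate, was at 1798 ± 296 (5.11) and Bcl11a, which acts upstream of it, at 742 ± 93.6 (4.74). Runx2 and Spib, which control pDC egress and maturation, had ratios of 2.84 and 2.62. The lower factors were Klf4 at -1.64, Ets1 at -1.16 and Id2, the inhibitor of E proteins such as TCF4, at -2.88 with 16 UMIs in the 128 cells.

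Nucleic acid sensing genes were detected unevenly. Of 25 listed genes outside the gate, 10 were at least 2-fold higher and 1 lower (median log2 ratio 0.61). Unc93b1, the chaperone that carries endosomal TLRs, was at 498 CPM against 24.01 in the other barcodes (3.53). Pacsin1, an endocytic adaptor that belongs to the gate, had a ratio of 3.03, and Slc15a4, a lysosomal transporter needed for interferon release, 2.39. Tlr7, the receptor of single-stranded RNA, had 80 UMIs in 54 of 128 cells (88.2 CPM, log2 ratio 2.30), and 0.212% of T cell barcodes held a UMI of it. Tlr9, the receptor of CpG DNA, had 8 UMIs in 8 of 128 cells. Irf7, the inducible factor of the interferon response, was at 142 CPM against 84.3 (0.61).

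No interferon RNA was counted in pDC. The 20 listed genes of type I, II and III interferons had 0 UMIs in the 128 cells, which allows a share of up to 2.34% of cells with a UMI and up to 3.27 CPM over the 128 cells. The same was so for all 135 cells, with a limit of 2.22%. Interferon-stimulated genes were divided, with 2 of 32 outside the gate at least 2-fold higher, 7 at least 2-fold lower and a median log2 ratio of -0.35. Ifi27l2a (2.71) was among the higher. Parp14 was at -1.38, and Ifit1, with 9 UMIs, at -1.20, while Ifit2, Ifit3 and Oas1a had no UMI. Of 22 listed costimulation, cytokine and chemokine genes, 3 had at least 30 UMIs in the 128 cells and 5 had none. Of the 22, 2 were at least 2-fold higher and 4 at least 2-fold lower (median log2 ratio -0.07). Ccl4, a chemokine for T and NK cells, had 345 UMIs in 32 of 128 cells, beside a UMI in 40.4% of T cell barcodes, Cd86 had 3 UMIs, and Cd80, Il6, Il10 and Il12b had none. Ccr7, a receptor of migrating mature dendritic cells, was detected in 3 of 128 cells.

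MHC class II transcripts, which present peptide to CD4 T cells, were higher in pDC than in the other Ptprc-positive barcodes. Of 13 listed genes, 10 were at least 2-fold higher and none lower (median log2 ratio 2.22). The 13 genes summed to 12312 CPM in pDC, 2119 in the other barcodes, 12844 in the B or plasma cell gate and 21290 in the myeloid gate. Individual pDC ranged widely, from 0 to 3.26% of UMIs with a median of 1.15%. Cd74, the invariant chain, was at 5378 CPM, and H2-Oa, a modulator of peptide loading, at 171 against 5.44 in the other barcodes (log2 ratio 2.90). MHC class I genes had a median log2 ratio of 0.24, with 3 of 15 at least 2-fold higher and 1 lower.

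Genes of the secretory pathway and the unfolded protein response were moderately higher. Of 36 listed genes, 10 were at least 2-fold higher and 1 lower (median log2 ratio 0.67). Mzb1, an endoplasmic reticulum chaperone of plasma cells, had the ratio 3.07, and Sec61b, a subunit of the translocon, 1.94. Xbp1, the transcription factor of the unfolded protein response, was at 358 CPM against 78.0 (1.93). Of 84 ribosomal protein genes, 37 were at least 2-fold higher and none lower (median log2 ratio 0.97).

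Some immunoglobulin transcripts were present in pDC. Of 16 listed immunoglobulin and recombination genes, 4 were at least 2-fold higher, 4 at least 2-fold lower and 5 had no UMI (median log2 ratio 0). Iglc3, a lambda light chain constant gene, was at 793, 1345 and 1071 CPM in control and 928, 1253 and 988 in IE-HuR-/- libraries, against 13.4 in the other Ptprc-positive barcodes (log2 ratio 5.01). The IE-HuR-/- levels lay within the range of the control levels. Ighm, the constant gene of IgM, was detected in 126 of 128 cells, in 34.5% of T cell barcodes and in 1.38% of epithelial barcodes, whose median was 4817 UMIs. Dntt, the template-independent polymerase of V(D)J recombination, had a log2 ratio of 3.05, while Rag1 and Rag2 had no UMI. Cd79a was at 0 in all 135 cells, and Jchain had 1 UMI. Other genes of B cell receptor signalling were present, with the adaptor Blnk detected in 82 of 128 cells, in 41.1% of B or plasma cell barcodes and in 1.21% of T cell barcodes, and Cd79b, the partner of Cd79a, in 20 of 128, 83.1% and 16.1%. Igkc, which is abundant in plasma cells, was at 143, 127 and 193 CPM in the pDC of control and 134, 187 and 174 in those of IE-HuR-/- libraries. In the other barcodes it varied more, with 392, 59.6 and 54.6 in control and 1625, 2099 and 1137 in IE-HuR-/- libraries, so that pDC were higher in control 2 and control 3 and lower in the other 4 libraries. The lambda constant genes are near-identical copies, so counts of one may include reads of another.

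Of the cytochrome c oxidase subunits, 1 isoform was much higher in pDC. Cox6a2, the subunit isoform otherwise known from heart and skeletal muscle and a gate gene, was at 1444, 1352 and 1131 CPM in control and 1917, 1221 and 1766 in IE-HuR-/- libraries, against 0.75 in the other Ptprc-positive barcodes. The groups overlapped. It was detected in 114 of 128 cells and in 0.383% of epithelial barcodes. Its ubiquitous paralog Cox6a1 was at 255 ± 43.1 CPM against 423 (log2 ratio -0.70). Of the 19 listed oxidase subunits outside the gate, none was at least 2-fold higher and 1 was lower, which was Cox7a1 with 10 UMIs in the 128 cells. The median log2 ratio of the list was -0.31.

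Of 13 listed homing and adhesion genes outside the gate, 7 were at least 2-fold higher and 1 lower (median log2 ratio 1.08). Ccr9, of the gate, was detected in 123 of 128 cells, with a ratio of 3.16. Itgb7, a subunit of the gut-homing integrin, was detected in 80 of 128 cells at 137 CPM against 119 (0.19), and Itgae, its partner in intraepithelial T cells, had 28 UMIs (-2.98). Ccr2, a receptor of inflammatory chemokines, had a ratio of 3.12. Markers used to divide pDC were mixed among the cells. Cd8a was detected in 67, Cd4 in 32 and Ly6c2 in 112 of 128 cells, and in 82.8%, 4.14% and 0.394% of T cell barcodes. Axl, a marker of transitional dendritic cells, was detected in none of the 128.

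By label, no gene passed in the 135 cells in the main fit, while other edgeR fits called up to 60 genes, given under processing below. Of 2786 genes tested with edgeR's quasi-likelihood test, 0 (0%) had a Benjamini-Hochberg adjusted p under 0.05, 90 had an unadjusted p under 0.05, and DESeq2 called 11 genes, all higher in IE-HuR-/- libraries. The 5 genes with the lowest p on each side did not pass. On the higher side these were Egr1, H2-Ab1, Zfp36, Ipmk and Rsrp1, and on the lower side Cyp2c55, Ahcyl1, Zcchc7, Hook3 and Eid1. Egr1, an immediate-early factor, had the largest of the first set at 2.41 ± 0.45 (log2, SE), with levels of 15.9, 14.1 and 19.96 CPM in control and 134, 68.3 and 73.5 in IE-HuR-/- libraries. The libraries of the labels did not overlap for it, beside 219 of 2786 genes (7.86%) for which that was so. Its adjusted p in edgeR was 0.998.

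In the 128 cells, 12 of 2356 genes passed (0.509%), 7 higher (0.297%) and 5 lower (0.212%) in IE-HuR-/- libraries. Ccr9 is a gate gene, and with gate genes left out 11 of 2347 passed, 6 of them higher. The 12 were Ccr9, Reg3b, Reg3g, Fabp6, H2-Ab1, Cd74 and Rsrp1 on the higher side and Lct, Ces2c, Selenop, Mgam and Clca4b on the lower side. Apart from Rsrp1, they are a homing receptor, a pair of antigen presentation genes and 8 genes known from enterocytes. Of the 2356 genes, 275 (11.7%) had libraries that did not overlap between labels after TMM scaling, and all 12 were among them. In the 135 cells each of the 12 had an edgeR adjusted p of 0.998, and the estimates of Selenop and Clca4b had the opposite sign there (0.081 and 1.01 on the log2 scale).

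Ccr9 was higher in pDC of IE-HuR-/- libraries. Its level was 1127, 1206 and 1078 CPM in control and 2432, 1881 and 1756 in IE-HuR-/- libraries, in the 128 cells. Every IE-HuR-/- library was above every control library, and IE-HuR-/- 1 was highest. Since Ccr9 is 1 of the 8 other gate genes, its change was tested in cells chosen without it, by at least 2 Siglech UMIs and at least 3 of the 7 remaining genes. These were 126 of the 128 cells, in which the log2 fold change was 0.78 ± 0.12 (SE) with an edgeR adjusted p of 0.00169. In the 135 cells it was at 1127, 892 and 1078 CPM in control and 2432, 1075 and 1261 in IE-HuR-/- libraries, which overlapped on this scale, and the log2 change was 0.67 ± 0.27. Ccr9 in epithelial barcodes was 1.57 and 1.79 CPM in the labels. In the other Ptprc-positive barcodes it was 131 ± 25.9 and 177 ± 8.98 CPM (log2 change 0.43 ± 0.12, edgeR adjusted p = 0.0667). The difference between this change and that in the 126 pDC was 0.36 ± 0.19 and did not pass (edgeR adjusted p = 0.817). In the others with at most 1% epithelial UMIs Ccr9 was at 219 ± 20.4 and 289 ± 27.7 CPM and passed by label (0.37 ± 0.08, edgeR adjusted p = 0.01).

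Of the MHC class II presentation genes, 2 rose with it. H2-Ab1, the beta chain of I-A, was at 1151, 1504 and 1158 CPM in control and 2257, 1710 and 2063 in IE-HuR-/- libraries (log2 fold change 0.61 ± 0.13 SE, edgeR adjusted p = 0.0218). Cd74 was at 4412, 4931 and 4391 in control and 6720, 5935 and 5878 in IE-HuR-/- libraries (0.39 ± 0.09, edgeR adjusted p = 0.0327). For both genes the lowest IE-HuR-/- library was above the highest control. These calls depended on the processing, since H2-Ab1 passed in 8 and Cd74 in 5 of 12 other fits. H2-Ab1 did not pass with DESeq2 (adjusted p = 0.228), with the replicate block (edgeR adjusted p = 0.0794), without IE-HuR-/- 1 (0.137) or without IE-HuR-/- 3 (0.13). Cd74 did not pass in these either (0.651, 0.0714, 0.19 and 0.108), nor without control 1 (0.0711) or control 3 (0.0546). H2-Aa and H2-Eb1, whose promoters are shown above, did not pass, at 0.42 ± 0.14 and 0.46 ± 0.13 (edgeR adjusted p of 0.458 and 0.172), and their groups did not overlap either, beside 11.7% of all genes tested. Of the 9 MHC class II genes tested, 2 rose and none fell, beside 0.509% of all genes called, with a median of 0.33 beside -0.0033 over all genes. H2-DMa, H2-Oa, Ctss and Ifi30 had negative estimates, from -0.05 to -0.27, none of which passed.

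**Figure D4:**
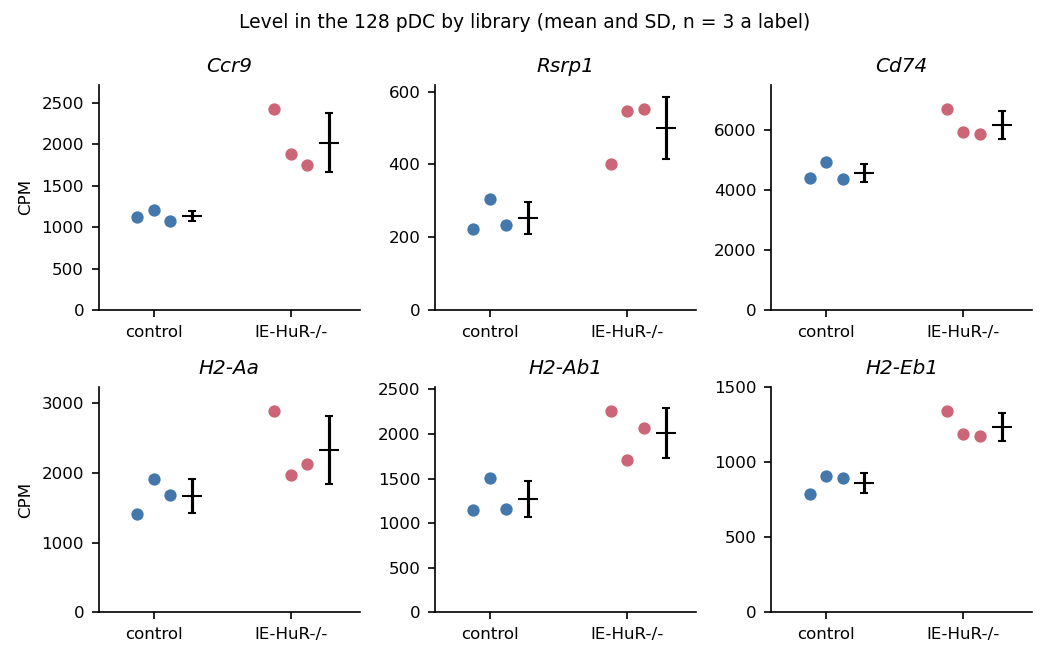
CPM in the 128 pDC of each library (points) for 6 genes, with mean and SD of the 3 libraries of each label and axes that start at 0. In all 6 panels the IE-HuR-/- points (red) lie above the control points (blue). Rsrp1, Cd74 and H2-Ab1 passed the edgeR test while H2-Aa and H2-Eb1 did not. Ccr9 is a gate gene, so its levels here are a description, and its test used the 126 cells chosen without it.

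H2-Ab1 and Cd74 also differed between labels in epithelial barcodes. In epithelial barcodes H2-Ab1 was at 213 ± 10.6 CPM in control and 953 ± 22.6 in IE-HuR-/- libraries, and Cd74 at 356 ± 25.8 and 1980 ± 40.8 (SD, n = 3 each). Their levels in pDC stood above those in epithelial barcodes in both labels. The difference between labels in pDC was 739 CPM for H2-Ab1, and in epithelial barcodes it was 741. Genes of the epithelial list made up 0.787% of UMIs in the 128 cells and 10.4% in epithelial barcodes, and the part of epithelial RNA in these changes was not tested. In the 110 cells with at most 1% epithelial UMIs, H2-Ab1 rose by 0.57 ± 0.12 and Cd74 by 0.32 ± 0.08 (log2, SE; edgeR adjusted p of 0.00766 and 0.0155). There 15 of 1921 genes passed, 7 of which were among the 12, Ccr9, Rsrp1, Reg3b, Reg3g and Fabp6 being the others. In the other Ptprc-positive barcodes H2-Ab1 and Cd74 rose by 1.21 ± 0.15 and 1.13 ± 0.16 (log2, SE; edgeR adjusted p of 0.00156 and 0.00449). In those of them with at most 1% epithelial UMIs, H2-Ab1 was at 278 ± 84.5 and 280 ± 91.1 CPM and Cd74 at 772 ± 170 and 726 ± 224 (SD, n = 3 each). There the log2 changes were -0.02 ± 0.35 and -0.12 ± 0.29 (edgeR adjusted p of 0.99 and 0.893). In the myeloid gate the labels overlapped as well, with H2-Ab1 at 3403 ± 2039 and 3729 ± 2341 and Cd74 at 8454 ± 4484 and 9473 ± 5803 CPM. In the 128 pDC, without the cell that held macrophage RNA, Cd74 no longer passed (0.35, edgeR adjusted p = 0.11), while H2-Ab1 did (0.57, edgeR adjusted p = 0.0376).

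Rsrp1, which encodes an arginine- and serine-rich protein, rose from 253 ± 44.8 to 500 ± 85.2 CPM (log2 fold change 0.95 ± 0.21 SE, edgeR adjusted p = 0.0248). It passed in 8 of 12 other fits, and not with DESeq2 (adjusted p = 0.209), with the replicate block (edgeR adjusted p = 0.0714), without control 3 (0.0546) or without IE-HuR-/- 3 (0.204). In the other Ptprc-positive barcodes its change was 0.15 ± 0.09 (edgeR adjusted p = 0.407), and the difference between these changes, 0.79 ± 0.24, did not pass (edgeR adjusted p = 0.434). Zfp36, which encodes the mRNA-destabilising protein tristetraprolin, was at 127, 69.8 and 146 in control and 278, 208 and 256 CPM in IE-HuR-/- libraries. Its log2 change of 1.06 ± 0.28 did not pass (edgeR adjusted p = 0.107).

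The genes known from enterocytes changed in the same direction in pDC as in epithelial barcodes, Clca4b excepted. Reg3b, an antibacterial lectin, was at 55.5, 171 and 79.8 CPM in the 128 pDC of control and 515, 369 and 492 in those of IE-HuR-/- libraries (log2 fold change 2.06 ± 0.29 SE, edgeR adjusted p = 0.00144). In epithelial barcodes it was at 2309 ± 204 and 12075 ± 129 (SD, n = 3 each). The level in pDC was thus 4.43% of the epithelial level in control and 3.80% in IE-HuR-/- libraries. For Reg3g these shares were 3.23% and 3.78%, and for Fabp6, the ileal bile acid binding protein, 3.10% and 3.11%. Lct, the brush border lactase, was at 119, 165 and 206 in control and 41.2, 36.4 and 35.8 CPM in IE-HuR-/- libraries (-2.17 ± 0.36, edgeR adjusted p = 0.00144), which was 15.6% and 7.23% of its epithelial level. Ces2c, a carboxylesterase, and Mgam, the brush border maltase-glucoamylase, fell by 2.53 and 1.60 on the log2 scale (edgeR adjusted p of 0.00216 and 0.0239) and were lower in epithelial barcodes of IE-HuR-/- libraries as well. Their levels in pDC were 20.8% and 16.7% of the epithelial level in control and 5.10% and 6.91% in IE-HuR-/- libraries. For Selenop and Clca4b these shares were 13.2% and 11.6% in control and 6.33% and 4.91% in IE-HuR-/- libraries. Lct and Ces2c were too low to be tested in the 110 cells with at most 1% epithelial UMIs. Mgam did not pass there (-0.73, edgeR adjusted p = 0.649), and it passed in 7 of 12 other fits of the 128 cells, not with DESeq2 (adjusted p = 0.115), the replicate block (edgeR adjusted p = 0.0714), or without control 3 (0.21), IE-HuR-/- 1 (0.134) or IE-HuR-/- 3 (0.206). Ces2c passed in 10 of 12, not without control 3 (edgeR adjusted p = 0.103) or IE-HuR-/- 3 (0.0516). Fabp6 passed in the 110 cells (edgeR adjusted p = 0.00353) and in 7 of 12 other fits of the 128, not with DESeq2 (adjusted p = 0.342), the block (edgeR adjusted p = 0.0714), or without control 3 (0.122), IE-HuR-/- 2 (0.281) or IE-HuR-/- 3 (0.12). Clca4b, a secreted metalloprotease of the villus, was lower by a log2 change of -1.15 in the 128 cells (edgeR adjusted p = 0.0327). It was at 1.01 in the 135 cells and did not pass in the 110 (-0.80, edgeR adjusted p = 0.437). Among 12 other fits of the 128 it passed in 6, not with DESeq2 (adjusted p = 0.29), the block (edgeR adjusted p = 0.0637), or without control 2 (0.293), control 3 (0.07), IE-HuR-/- 1 (0.19) or IE-HuR-/- 3 (0.171). Clca4b was at 2467 ± 102 and 2590 ± 92.6 CPM in epithelial barcodes. The epithelial list summed to 5276, 10618 and 8841 CPM in the pDC of control and 5040, 10530 and 5381 in those of IE-HuR-/- libraries, which overlapped, and Apoa1 was its most abundant gene. Epithelial RNA moved with the label in the same direction for all of these genes but Clca4b, and its part in the levels in pDC was not tested.

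**Figure D5:**
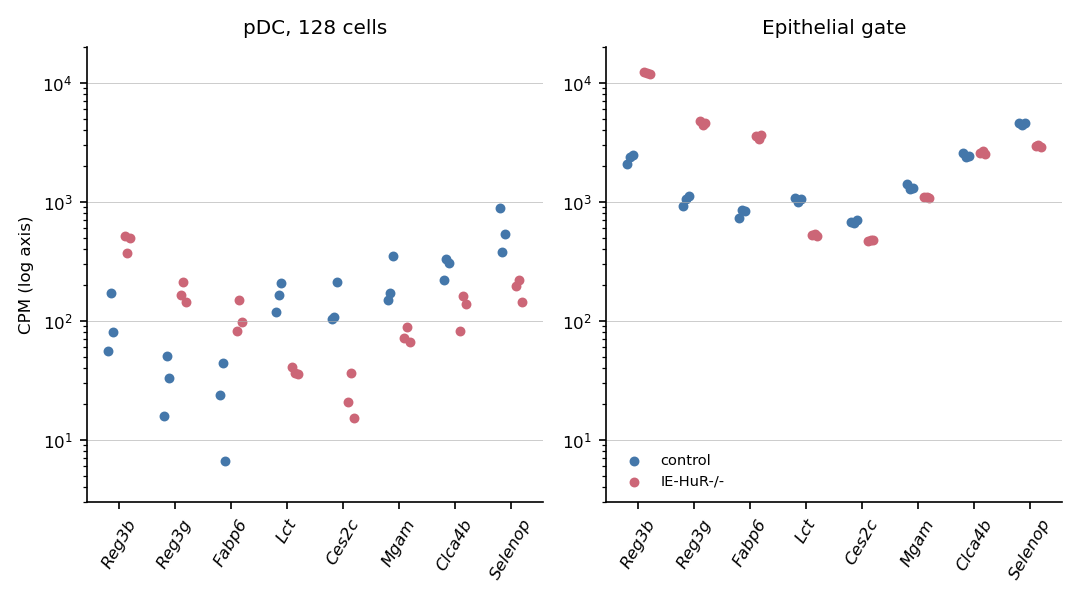
CPM (log axis) of 8 genes in the 128 pDC (left) and in epithelial barcodes (right), 1 point per library. Reg3b, Reg3g and Fabp6 are higher in IE-HuR-/- libraries (red) in both panels, Lct, Ces2c, Mgam and Selenop lower in both, and Clca4b lower only on the left.

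Selenop, a selenium carrier made by enterocytes and macrophages, fell by 1.73 ± 0.29 on the log2 scale in the 128 cells (edgeR adjusted p = 0.0189). Its estimate was 0.081 in the 135 cells, and in the 110 cells with at most 1% epithelial UMIs it did not pass (-1.75 ± 0.69, edgeR adjusted p = 0.732). Its level was 889, 381 and 532 CPM in control and 196, 218 and 143 in IE-HuR-/- libraries. The cell of control 1 with macrophage RNA held 92 of the 112 Selenop UMIs of the pDC of that library. Without it the change was -1.03 with an edgeR adjusted p of 0.626, and 11 genes passed in all. Without all of control 1 it was -1.33 and passed (edgeR adjusted p = 0.000815), and without IE-HuR-/- 1 or IE-HuR-/- 3 it did not (0.19 and 0.165).

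Few members of the other lists of pDC genes were called by label, beside 0.509% of all genes, a share at which none is the usual count in lists of this size. With gate genes left out, none of the listed transcription factors (12 tested), surface receptors (16), sensing genes (12), secretory pathway genes (30), immunoglobulin genes (5), oxidase subunits (15) or homing genes (8) passed in the 128 cells. Their median log2 changes lay between -0.03 and 0.09. Irf8, a gate gene whose level is given as a description, was at 2751 ± 157 CPM in control and 2473 ± 152 in IE-HuR-/- libraries (SD, n = 3 each). Ribosomal protein genes had 63 positive and 18 negative estimates of 81 with none called. Interferon-stimulated genes outside the gate had 5 tested and none called, with a median of -0.22. Elavl1 in pDC was at 63.2 ± 22.4 and 61.8 ± 13.3 CPM.

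The change by label in pDC was also set against that in the other Ptprc-positive barcodes, where 680 of 13062 genes passed (5.21%), 319 higher (2.44%) and 361 lower (2.76%) in IE-HuR-/- libraries. Groups did not overlap for 25.3% of these genes. The test of the difference called 1 of 2786 genes with the 135 cells (0.0359%) and 6 of 2356 with the 128 (0.255%), or 10 (0.424%) where the others had at most 1% epithelial UMIs. All 6 genes passed by label in the other barcodes and none of them did in pDC. Il7r, the interleukin 7 receptor, was at 368 ± 60.7 and 364 ± 38.6 CPM in pDC, and at 9.23 ± 1.75 and 48.7 ± 0.94 in the other barcodes (SD, n = 3 each). The other barcodes mix T cells, B cells, plasma cells and myeloid cells in proportions that differed between libraries. The B or plasma cell gate held 35, 34 and 19 barcodes in control and 49, 33 and 49 in IE-HuR-/- libraries, and its part in these differences was not tested. Against the myeloid gate alone, no gene passed in edgeR, with 39 of 2356 at an unadjusted p under 0.05.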

How the data were processed

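For each of the 6 libraries the authors deposited a matrix of unnormalized UMI counts, in which the lowest total of a barcode was 500 UMIs. The file headers name Cell Ranger 6.1.2, and the submitters' processing notes name Cell Ranger, Seurat and build mm10. The methods name another version and a human reference. Gene identifiers in the counts are those of mouse, and the annotation version behind them is uncertain. The labels describe a 5′ kit and the methods a 3′ kit. Gene symbols were taken from the files (32285 features), and Mx1, Mx2 and Ddit3 were not matched and are not analysed here. No doublet caller was run. Of all barcode sequences, 435 occurred in more than 1 library, and 2 pDC carried one.

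Counts were summed per library and cell set, so that n = 3 libraries per label. Library totals were 59518012 to 91818560 UMIs, and the pDC sums ranged from 97026 to 336750. Sums were tested with edgeR 4.0.16 (quasi-likelihood F test, TMM scaling, filterByExpr with a minimum count of 10 and total of 15) in R 4.3.3, with library as a block for the difference between cell sets. DESeq2 1.42.0 was an alternative. Shares were compared by exact permutation with scipy 1.17.1. All p-values for genes were adjusted over all genes tested. The scripts were tested on simulated data. No libraries of a label differed by less than sampling noise (chi-square per degree of freedom of at least 1.30).

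The T cell gate needed Ptprc and Cd3e, the myeloid gate Ptprc with at least 2 myeloid genes, the B or plasma gate Ptprc with at least 2 of their genes. Named genes were the gate genes, members of the lists (those with most UMIs first), the 25 highest and 15 lowest of the profile, and by label called genes with separated libraries, or the 5 of lowest p on each side. Rgs1, Acta1 and other genes outside this rule were named after their values were seen. The members and lists were chosen with earlier results of these data known. The limits of the 128 cells were set together with the tests, and the alternatives of that fit, the leaving out of the cell with macrophage RNA, the gates without Ccr9 or Tcf4 and the use of these 128 cells for the levels were chosen after seeing the data. A few members of the lists are counted but not reported here by name.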

Additional observations from a re-analysis of the deposited data

Results flagged for a closer look

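The change by label in pDC differed from that in the other Ptprc-positive barcodes for the following genes by the edgeR test of the difference (log2 change in pDC minus log2 change in the others). Il7r differed by -2.62 with the 135 cells (edgeR adjusted p = 0.0391) and by -2.48 with the 128 cells (edgeR adjusted p = 7.7e-06). With the 128 cells Ly6a differed by -1.92, Cd8b1 by -1.81, Mzb1 by -2.18 and H2-DMb1 by -1.50 (edgeR adjusted p of 0.000295, 0.0016, 0.0053 and 0.0225). Tcf4 differed by 1.04, but it is a gate gene, so this value is a description. In the 123 cells that held at least 2 Siglech UMIs and 3 gate genes other than Tcf4, it differed by 1.09 (edgeR adjusted p = 0.0218). Ly6a was at 1323 ± 124 and 1285 ± 223 CPM in control and IE-HuR-/- pDC, and at 4.83 ± 0.70 and 17.2 ± 0.90 in the other barcodes (SD, n = 3 each). Tcf4 was at 1723 ± 349 and 1872 ± 284 in pDC, and at 43.6 ± 3.36 and 22.6 ± 1.83 in the others. With the others limited to barcodes of at most 1% epithelial UMIs, 10 genes passed. Il7r, Ly6a, Cd8b1, Mzb1 and Tcf4 were among them and H2-DMb1 was not, with a difference of 0.03 (edgeR adjusted p = 1). H2-DMb1 was at 14.5 ± 2.22 and 51.7 ± 1.98 CPM in all the other barcodes and at 17.3 ± 2.49 and 22.5 ± 4.60 in those with at most 1% epithelial UMIs. Against the myeloid gate no gene passed.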

How the results depend on the processing

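The number of genes called by label moved both with the barcodes counted as pDC and with the fit. In the 135 cells, where edgeR called 0 genes, DESeq2 called 11, no filter on low counts 60, the gate of 128 cells 12, the 110 cells with at most 1% epithelial UMIs 15, and leaving out 1 library gave 0 to 36, the latter without IE-HuR-/- 1. In the 128 cells DESeq2 called 7 and no filter 42, and leaving out 1 library gave 5 (without IE-HuR-/- 3) to 31 (without control 1), with 28 without IE-HuR-/- 2. Lct, Reg3b and Reg3g passed in each of 12 other fits of the 128 cells, with adjusted p of at most 0.0239, although Lct was not tested in the 110 cells. Ces2c passed in 10, Selenop in 9, Mgam and Fabp6 in 7 each and Clca4b in 6. Ccr9 is a gate gene, so its passes in fits of cells chosen with it are a description. In the 126 cells chosen without Ccr9 it passed (edgeR adjusted p = 0.00169). In the 135 cells Selenop turned to 0.081 and Clca4b to 1.01 (log2). For the other Ptprc-positive barcodes, leaving out 1 library gave 195 (without IE-HuR-/- 1) to 949 genes (without control 2). The test of the difference gave 8 genes with DESeq2, 36 without a filter, 0 against the myeloid gate and 0 to 30 without 1 library (30 without IE-HuR-/- 1). With the 128 cells it gave 10 against others of at most 1% epithelial UMIs and 0 against the myeloid gate.

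Genes at least 2-fold higher in pDC numbered 291 with 50 CPM added. Genes at least 2-fold lower numbered 133 with 50 added, 624 with 5 added, 178 against others with at least 2 Ptprc UMIs and at most 1% epithelial UMIs, 753 for pDC of at most 1% epithelial UMIs, 665 for the 128 cells, and 182 (without IE-HuR-/- 1) to 474 (without IE-HuR-/- 2) when 1 library was left out. None of the 42 named profile genes changed direction in 462 values. They were picked largely for the highest and lowest ratios in these same data, so this count is a description. The difference in the share of all filtered barcodes was -0.336 percentage points, against 0.108 as reported, for the 128-cell gate among barcodes of at most 1% epithelial UMIs, and 0.0607 to 0.184 without 1 library. The difference in the share of Ptprc-positive barcodes was -0.108 as reported, 0.0334 with Siglech not required, -0.806 for the 128-cell gate among barcodes of at most 1% epithelial UMIs (exact permutation p = 0.2), -0.506 with each barcode thinned to 1000 UMIs (exact permutation p = 0.2), and -0.247 to 0.112 without 1 library. The cause of these changes was not tested.

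The correlations of same-numbered libraries were 0.51, 0.67 and -0.09 in the 135 cells and 0.11, 0.05 and -0.06 in the 128. Replicate numbers thus showed little pairing in the 128 cells. In the 135 cells the libraries of replicates 1 and 2 were correlated and those of replicate 3 were not. With the replicate block 57 genes were called in the 135 cells, 9 in the 128 and 395 in the other Ptprc-positive barcodes.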

Other observations

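Acta1, the actin of skeletal muscle, had 0 UMIs in the 128 pDC of each control library and 51.5, 78.0 and 56.3 CPM in the IE-HuR-/- libraries (31 UMIs in all), below the filter on low counts. In epithelial barcodes it was at 20.8 ± 3.29 and 1316 ± 13.1 CPM (SD, n = 3 each). Rgs1, a regulator of G protein signalling, was at 95.2, 82.5 and 106 CPM in control and 196, 192 and 225 in IE-HuR-/- pDC. Its groups did not overlap, beside 11.7% of all genes tested for which that was so. It did not pass edgeR's test (log2 change 1.07, adjusted p = 0.0843). Gm21762, a predicted gene, was at 360 ± 95.2 CPM in pDC (SD over 6 libraries) and 0.03 in the other Ptprc-positive barcodes.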
